A study of Homo sapiens with 4 samples.

Results

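RUNX1 was bound at 22802 regions of the genome in 6T-CEM cells, and 4968 of them (21.8%) lay in the outermost 5 Mb of a chromosome. These terminal windows made up 6.76% of the length of chromosomes 1 to 22 and X and held 12.6% of their protein-coding genes. 6T-CEM is an established human cell line of T-ALL, an acute leukaemia of T-cell precursors. Binding was mapped by CUT&Tag, in which an antibody on the chromatin guides a transposase that cuts and tags the DNA around the bound protein. The study made 4 libraries from this line under a single condition, 2 with an antibody to ETS1 and 2 with an antibody to RUNX1, and each peak list was called against an IgG control, an antibody with no chromatin target. No treatment, time or genotype separated the libraries, so the comparisons are between antibodies and between parts of the genome.

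A region is the span of touching peaks that holds at least 1 peak of each RUNX1 library. It was counted as terminal when its midpoint lay within 5 Mb of a chromosome end in hg38, at 41 ends in all. The short-arm ends of the acrocentric chromosomes 13, 14, 15, 21 and 22 were not counted. The members were thus chosen by where RUNX1 peaks were called, and their number and density are given as a description, with no test.

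RUNX1 is the DNA-binding subunit of core-binding factor, a regulator of blood formation and of T-cell development, and binds the sequence TGTGGT together with its partner CBFB. ETS1 is an ETS-family factor of lymphocytes that binds around a GGAA core, and both proteins can occupy neighbouring sites. Towards their ends many human chromosomes turn GC-rich and gene-rich, and the outermost stretch before the telomere repeat carries blocks of sequence shared between chromosomes. Reads from such blocks cannot be placed with certainty, and how the authors treated them is not stated in the labels.

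The upstream sequence of genes in the terminal windows with strong RUNX1 signal at the start site shows the setting in which these regions lie. Each is the stretch of 200 bases before a RefSeq start site (GRCh38.p14), read 5′ to 3′ along the gene. The first holds both motifs marked, with TGTGGT and CTTCCGG (the reverse complement of the ETS motif CCGGAAG) in capitals, and the other 4 hold neither of these strings on either strand. The shorter ETS core GGAAG, counted for promoters below, was not marked, and the HES1 stretch holds it. Variants of the RUNX string were not searched, so a stretch without a mark may still hold a site.
HDAC4, inner start site, chr2:239267515-239267714, minus strand: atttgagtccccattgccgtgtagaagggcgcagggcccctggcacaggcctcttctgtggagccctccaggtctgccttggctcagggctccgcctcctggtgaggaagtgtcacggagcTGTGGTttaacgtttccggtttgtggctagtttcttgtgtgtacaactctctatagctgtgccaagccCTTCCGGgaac
HES1, chr3:194135948-194136147, plus strand: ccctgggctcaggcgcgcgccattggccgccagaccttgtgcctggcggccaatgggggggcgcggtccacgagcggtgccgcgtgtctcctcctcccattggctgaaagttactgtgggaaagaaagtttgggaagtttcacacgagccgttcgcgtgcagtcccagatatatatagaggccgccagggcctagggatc
POFUT2, chr21:45287896-45288095, minus strand: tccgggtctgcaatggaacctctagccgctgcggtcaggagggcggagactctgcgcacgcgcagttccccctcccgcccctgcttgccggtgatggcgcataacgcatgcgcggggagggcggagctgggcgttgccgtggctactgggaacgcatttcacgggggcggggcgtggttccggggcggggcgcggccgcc
TCF3, chr19:1652616-1652815, minus strand: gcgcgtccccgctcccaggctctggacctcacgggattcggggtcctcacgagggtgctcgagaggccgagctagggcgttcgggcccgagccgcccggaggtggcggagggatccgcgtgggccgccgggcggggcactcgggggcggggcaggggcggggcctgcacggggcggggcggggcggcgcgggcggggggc
ANKRD11, chr16:89490562-89490761, minus strand: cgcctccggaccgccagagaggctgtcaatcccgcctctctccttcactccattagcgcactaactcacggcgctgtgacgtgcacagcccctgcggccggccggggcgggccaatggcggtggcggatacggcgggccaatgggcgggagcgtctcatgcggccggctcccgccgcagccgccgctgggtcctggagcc
G and C made up 58% of the HDAC4 stretch, 63% of that of HES1, 72.5% of those of POFUT2 and ANKRD11, and 82% of that of TCF3. The RUNX1 fold over IgG at these start sites was 53.9 and 51.9 in the 2 libraries at HDAC4, 78.4 and 67.9 at HES1, 36.6 and 34.3 at POFUT2, 30.4 and 29.5 at TCF3 and 38.5 and 34.7 at ANKRD11. An ETS1 region lay at the start site of HDAC4 (6.40 and 6.14 fold), TCF3 (13.5 and 17.1) and ANKRD11 (13.7 and 19.4), but not over the start sites of HES1 and POFUT2.

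The 4 libraries held 6082 and 5625 ETS1 peaks and 25360 and 25001 RUNX1 peaks. The 2 libraries of each antibody carry only replicate numbers, and nothing says whether they came from separate cultures, so the spread between them may be technical. Sequencing depth is unknown, since the lists give no read totals. Fold throughout is the authors' enrichment over IgG at the peak summit. Between the 2 RUNX1 libraries the median difference in fold at a terminal region was 0.12 on the log2 scale, and the median distance between their summits was 9 bp, against 0.12 and 6 bp elsewhere.

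RUNX1 regions were denser at the chromosome ends than elsewhere by any of the counts made. The terminal windows held 24.2 regions per Mb and the rest of the genome 6.31, a ratio of 3.84. The rest was taken at its full length, with the acrocentric short arms and stretches that held 0 genes and 0 regions. Such stretches lower its density per Mb. Protein-coding genes were also denser in the terminal windows, at 12.2 against 6.13 per Mb, a ratio of 2.00. Set against genes, RUNX1 still had 1.98 regions per gene in the terminal windows and 1.03 in the rest, a ratio of 1.92. Taken singly, the first RUNX1 library gave 3.96 times as many peaks per Mb at the ends and the second 3.93 times (3.94 ± 0.0174, SD, n = 2). The regions also stood closer together. The median gap between neighbours was 10.5 kb at the ends and 29.6 kb elsewhere.

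The density fell with distance from the end. In the outermost Mb there were 32.1 RUNX1 regions per Mb, in the second Mb 34.5, and in the following 3 Mb 21.1, 16.2 and 17.2. It was 11.4 per Mb between 5 and 10 Mb, 9.28 between 10 and 20 Mb and 5.29 further in. Per gene the 5 terminal bins lay between 1.78 and 2.21 regions, with no steady order among them, and the inner bins at 1.35, 1.25 and 0.933. Per Mb the values on both sides of the 5 Mb limit were part of a gradient, while per gene the 5 terminal bins were all above the inner ones. The last members inside the limit were by TMEM235 (6.44 and 5.81 fold), at an end of KIF1C (10.2 and 9.44), at an end of CDHR2 (15.1 and 14.1) and in REXO4 (5.97 and 6.83). The first outside it were in SLC23A2 (4.88 and 3.84), RPP40 (7.01 and 7.09) and RNF44 (35.0 and 30.4) and by BHLHE40 (13.02 and 14.5).

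**Figure D1:**
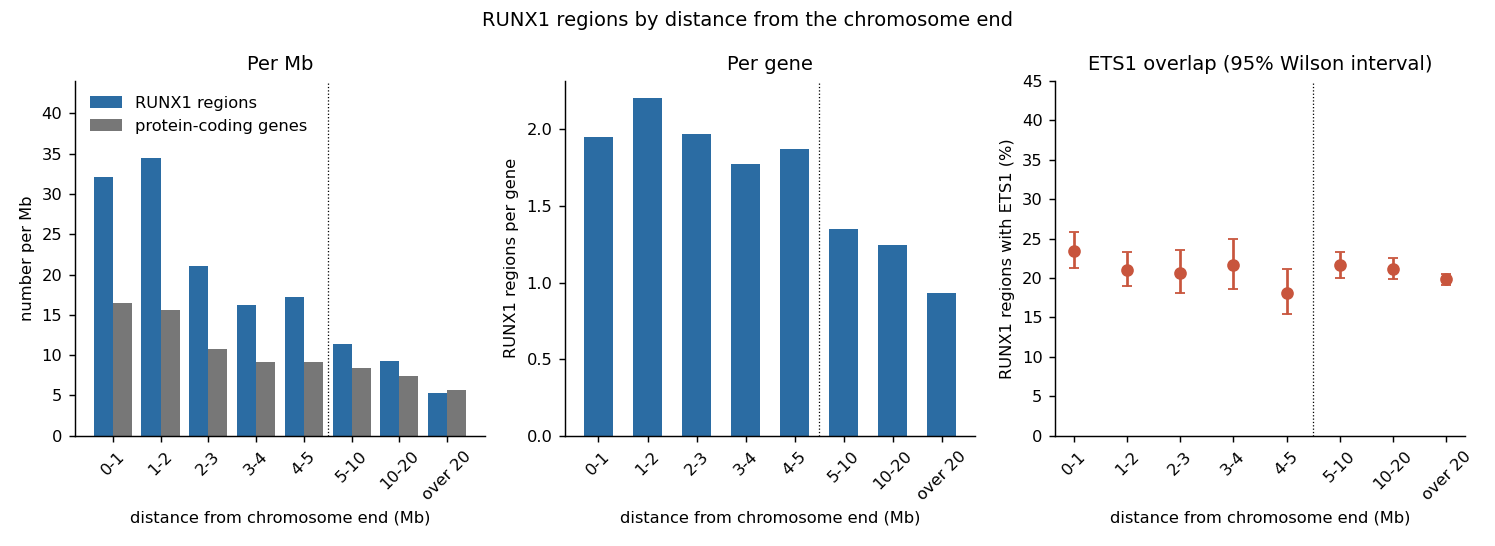
RUNX1 regions by distance from the nearest chromosome end, in Mb. Bars give RUNX1 regions and protein-coding genes per Mb (left) and RUNX1 regions per protein-coding gene (centre); points give the percentage of RUNX1 regions with an ETS1 region and its 95% Wilson interval (right), and the dotted line marks the 5 Mb limit. Regions per Mb fell from 32.1 in the outermost Mb to 5.29 beyond 20 Mb, while the ETS1 percentage stayed between 18.2 and 23.4.

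The difference was also present among windows with a like number of genes. When the genome was cut into windows of 5 Mb, 41 terminal and 555 inner, the terminal ones held a median of 98 RUNX1 regions and the inner ones 17, and 12 of the 20 fullest windows were terminal. Among windows with under 20 genes the terminal ones had 2.28 regions per gene and the inner ones 0.764. The values were 1.79 and 0.944 in windows of 20 to 39 genes, 2.56 and 1.16 in those of 40 to 79, and 1.70 and 1.13 in those of 80 or more. The terminal windows were higher in each of these 4 classes. The lowest class held 5 terminal windows.

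**Figure D2:**
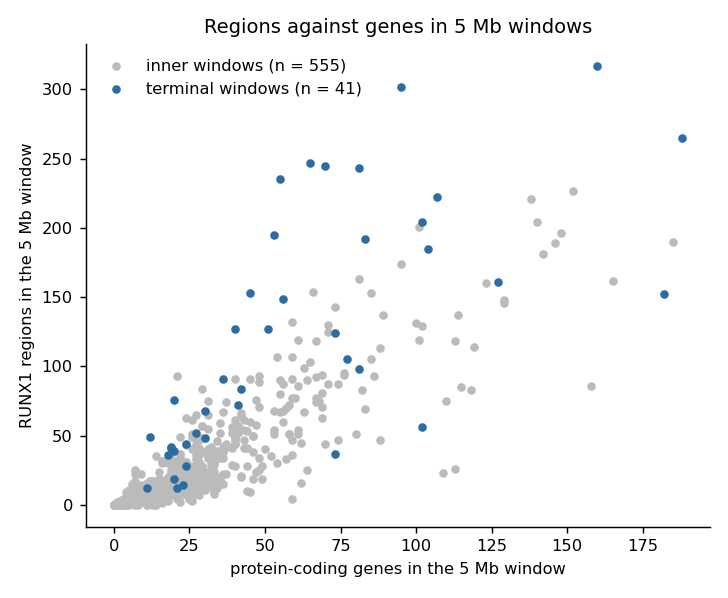
RUNX1 regions against protein-coding genes in windows of 5 Mb. Each point is a window, blue for the 41 terminal and grey for the 555 inner ones. In each class of gene number the median terminal window held more regions than the median inner one, though the ranges overlapped. The highest point is 19p with 317 regions.

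The surplus lay mostly away from gene ends. Of the terminal regions, 24.9% (1235) had their summit at a gene end, meaning up to 1000 bp from where a protein-coding gene starts or finishes, 45.7% (2268) lay inside a gene and 29.5% (1465) outside genes. Elsewhere the shares were 36.8%, 37.0% and 26.2%. The gene table gives no strand, so the start and the finish were not told apart. Regions at gene ends numbered 0.493 per gene in the terminal windows and 0.379 in the rest, a ratio of 1.30. Regions inside genes numbered 0.905 against 0.381 per gene (ratio 2.38) and those outside genes 0.584 against 0.270 (ratio 2.16). Genes were shorter in the terminal windows, with a median span of 15.9 kb against 26.3 kb elsewhere. Per Mb of gene body (1 kb bins) there were 21.6 inside regions at the ends and 5.63 in the rest, a ratio of 3.84, and per Mb between genes 14.6 and 2.83, a ratio of 5.18. The length between genes in the rest again includes stretches with neither genes nor regions.

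The regions were wider as well as more frequent, and their median fold was close to that elsewhere. Their median width was 986 bp against 842 bp. Regions wider than 5 kb numbered 106 at the ends (2.13%) and 100 in all the rest of the genome (0.561%), so 51.5% of such wide regions were terminal. The median fold was 8.23 at the ends and 8.18 elsewhere, a ratio of 1.006 that turned to 0.980 and 0.986 with the second and first library alone and to 0.999 without chromosome 19. By position the medians moved apart, with 9.29 against 7.80 at gene ends, 7.97 against 8.41 inside genes and 7.83 against 8.50 outside. The median pileup at the summit, recovered from fold and p-value, was 76 and 71 fragments in the 2 libraries at the ends and 84 and 79 elsewhere. The IgG expectation beneath it was 8.27 and 7.86 against 9.65 and 9.17. It was read at called summits only and is no measure of the IgG level of the windows as a whole.

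The very strongest regions of the series were nonetheless often terminal. The terminal windows held 9 of the 10 regions with the highest RUNX1 fold, 28 of the 50 highest, 41 of the 100 highest and 152 of the 500 highest (30.4%), beside their 21.8% of all regions. The first in the series was chr12:131625971-131630475, outside protein-coding genes and 36498 bp from LOC100996701. Its fold was 762 and 793 in the 2 RUNX1 libraries and 33.1 and 28.7 in the ETS1 libraries. The second, chr10:2500601-2502290 at an end of the uncharacterised LOC107983989, reached 399.9 and 416.5 with no ETS1 peak in either library. Both RUNX1 libraries gave nearly the same value at each.

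Of the 12 terminal regions with the highest fold, 7 lay inside genes, 4 outside and 1 at a gene end, and 6 had an ETS1 region. One of them was in ATP11A, a phospholipid flippase gene (253.3 and 274.7 for RUNX1, 14.1 and 12.1 for ETS1). A pair of regions lay 102.8 and 104.2 kb from the 7p end, chr7:101964-103548 (240.3 and 208.4) and chr7:103926-104551 (217.8 and 234.2), with no ETS1 peak and an IgG expectation of only 1.80 and 1.97 and of 2.14 and 2.03. The same expectations of 1.76 and 1.67 recurred at the regions nearest the 1q and 13q ends, and the 7p values lie close to them. The folds of this pair thus rest on a low denominator. A region 244544 bp from B3GAT1, which encodes the enzyme that makes the CD57 epitope, had 212.1 and 226.5 for RUNX1 and 12.5 and 11.6 for ETS1.

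Another 5 of these 12 were inside MAD1L1, a spindle checkpoint gene (205.2 and 224.7), UNC5A, a netrin receptor gene (227.0 and 155.2), PCBP3 (159.6 and 196.3), ADARB2, a relative of the RNA-editing adenosine deaminases (175.2 and 172.1), and BAHCC1 (178.4 and 165.4). The libraries differed most at UNC5A (191.1 ± 50.8, SD, n = 2). ETS1 overlapped the regions in PCBP3 (19.9 and 18.01) and BAHCC1 (9.79 and 9.42). No ETS1 peak of either library met the regions in MAD1L1 and ADARB2, nor those in TUBGCP3 (138.5 and 130.3), COL23A1 (123.4 and 118.9) and 37351 bp from SALL3 (121.6 and 118.1).

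The widest regions each ran across several kb of a gene. The first covered 22450 bp in NSMF (62.2 and 78.8 fold at the summit), followed by 21561 bp in PLEC, the plectin gene (119.5 and 124.0). Others spanned 14257 bp in KLF16, 13827 bp in GSE1, 13783 bp in BAHCC1 and 12610 bp at MAFG. All 6 overlapped an ETS1 region, as did 76.4% of the terminal regions wider than 5 kb and 81% of the wide ones elsewhere. A wide region has more bases in which an overlap can fall.

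Several genes in the terminal windows carried long runs of separate RUNX1 regions. GSE1, a gene for a subunit of histone deacetylase complexes on 16q, held 46 within its 506.7 kb, MAD1L1 on 7p held 36, RPTOR, the mTORC1 scaffold gene on 17q, held 29, HDAC4, a class IIa histone deacetylase gene on 2q, held 25 and CDH4, a cadherin gene on 20q, held 23. These genes were picked after their values were seen. Genes with 10 or more inner regions numbered 33 of the 2507 in the terminal windows and 44 of the 17314 elsewhere. GRAMD4 on 22q was the most densely covered of the 12 genes with the most regions, with 15 regions in 107.0 kb, or 14.02 per 100 kb.

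Chromosome ends differed widely among themselves. The number of regions in the terminal 5 Mb ran from 12 to 317 with a median of 98, and the 10 densest ends held 49.8% of all members. Regions per Mb were highest at 19p (63.4), 17q (60.4), 16p (53.0), 16q (49.4) and 20q (49), and lowest at 3p and 4q (2.4 each), 9p (2.8), 18p (3.8) and 15q (5.6). Ends on the short or lower-coordinate side are called p here and the others q. The density was above that of the rest of the same chromosome at 35 of the 41 ends per Mb and at 34 per gene. At 21q the contrast was widest, with 48.6 regions per Mb in the window against 3.52 on the rest of chromosome 21. That rest includes the short arm, which was not counted as an end, and its part in the contrast was not tested. Next came 8q, on a chromosome with both ends counted, with 37.0 against 3.34.

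The order changed when genes were taken into account. Per gene the highest ends were 14q (4.27), 8p (4.08), 7q and 16q (3.80 each) and 22q (3.68), and the lowest were 1q (0.507), Xq (0.549), 4q (0.571), 9p (0.609) and 19q (0.835). The 8p window held 49 regions over only 12 genes and moved from rank 29 per Mb to rank 2 per gene. The reverse held at 16p, which went from rank 3 to rank 30, with 265 regions over 188 genes. On 14q, 95 of the 235 regions (40.4%) lay beyond TMEM121, where the immunoglobulin heavy-chain locus sits and the table counts 0 protein-coding genes, so the figure per gene is raised there. An ETS1 region overlapped 24 of these 95.

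**Figure D3:**
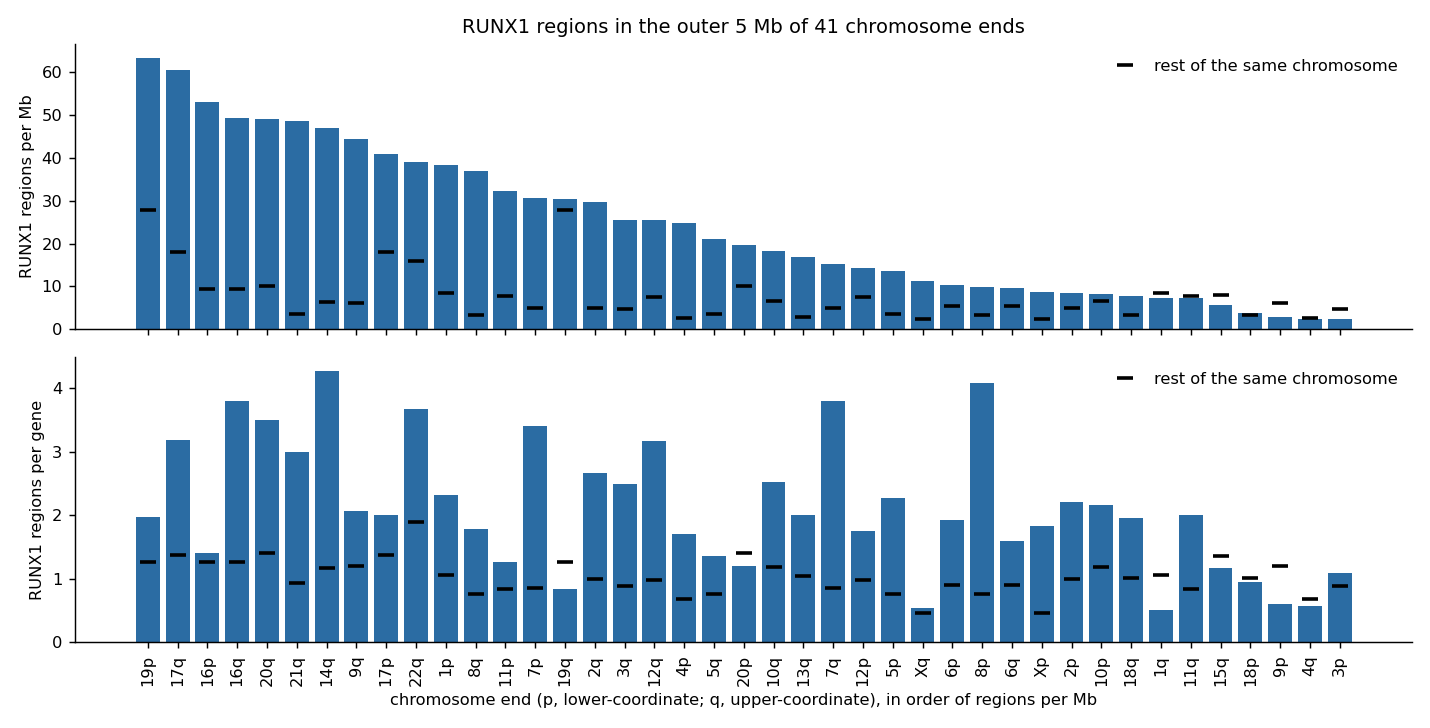
RUNX1 regions in the terminal 5 Mb of the 41 chromosome ends, in order of regions per Mb (top) and per protein-coding gene (bottom). Bars are the terminal windows and black marks the rest of the same chromosome; 35 bars of 41 exceed their mark in the top panel and 34 in the bottom, and 8p and 14q rise in the lower panel.

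The outermost members came close to the telomere repeats. Within 100 kb of an end lay 48 regions at 14 ends, and 19 of these lay within 50 kb, at 11 ends. An ETS1 region overlapped 17 of the 48. The nearest were at 3p, 10.4 kb from the end (5.84 and 3.77 fold), at 22q, 10.4 kb (12.3 and 12.6), at 1q, 10.4 kb (10.5 and 15.3), and at Xq, 11.1 kb (5.06 and 5.88). ETS1 was present at the first 3, with folds of 7.26 and 4.71, 11.8 and 10.7, and 15.8 and 11.7. In hg38 the bases just outside these positions are not resolved, and the blocks recur on other chromosomes. Their placement is therefore uncertain, as is that of the regions near WASHC1 on 9p and OR4F5 on 1p.

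ETS1 lay on nearly the same share of RUNX1 regions at the ends and elsewhere when all were counted. By an overlap of 1 bp it lay on a higher share at the ends within each kind of position. An ETS1 region overlapped 1058 of the 4968 terminal regions (21.3%, 95% Wilson interval 20.2 to 22.5), against 20.4% (19.8 to 20.97) elsewhere and 20.6% over all RUNX1 regions. In the first ETS1 library alone the share was 24.6% at the ends and 24.1% elsewhere, and in the second 22.9% and 22.4%. The terminal share was thus slightly higher in each library, by less than the 2 libraries differed from each other. Without chromosome 19 the shares were 19.2% and 19.3%. When both regions had to overlap by 50% of their length, the share was 8.60% at the ends and 11.2% elsewhere, which turns the direction. Intervals cover counting error only, and neighbouring regions are not independent.

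At gene ends ETS1 overlapped 42.4% of terminal RUNX1 regions (39.7 to 45.2) and 34.3% of the others (33.1 to 35.4). The single ETS1 libraries gave 47.6% and 44.8% against 39.5% and 37.4%, so the libraries did not overlap. The terminal gene-end regions were also wider (median 1193 against 954 bp) and of higher RUNX1 fold (9.29 against 7.80). Within classes of like fold the ETS1 share at gene ends was lower in the terminal windows in the 3 lowest of 10 classes (3.45, 3.53 and 10.6% against 6.54, 9.52 and 12.98%) and higher in the others, with 60% against 58.8% in class 8 and 78.1% against 75.9% in the highest. The part of width and fold in the difference was not tested further. Inside genes the share was 14.6% against 13.005%, with 17.1% and 16.3% against 15.99% and 14.3% in the single libraries. Outside genes it was 13.8% against 11.2%, with 16.9% and 14.7% against 13.7% and 12.7%. Terminal regions of both kinds were also wider, with medians of 975 against 813 bp inside genes and 839 against 729 bp outside. The part of width here was not tested. Without chromosome 19, an alternative chosen after seeing the data, the values were 39.1% against 32.6% at gene ends, 13.1% against 12.2% inside and 13.4% against 10.9% outside. Since the terminal windows had fewer of their regions at gene ends, where ETS1 was most common, these differences left little trace in the total. With the shares found elsewhere in each class, the terminal regions would have had ETS1 at 17.8%.

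Counted over all positions, ETS1 at the ends was less common on weak RUNX1 regions and more common on strong ones than elsewhere. All regions were ranked by RUNX1 fold and split into 10 equal classes. In the 4 lowest classes ETS1 lay at 1.81, 1.97, 2.94 and 7.86% of the terminal regions and at 2.97, 4.68, 6.33 and 11.2% of the others. In the highest class the shares were 57.1% (53.0 to 61.2) and 51.5% (49.1 to 53.8). The mix of positions differed too. Regions at gene ends made up 17.5, 16.7, 20.4 and 24.2% of the 4 lowest classes in the terminal windows. Elsewhere they made up 40.3, 39.7, 37.0 and 39.6%. At gene ends alone the terminal ETS1 share was lower in the 3 lowest classes only, and was 24.6% against 22.5% in class 4. The part of position in these differences by fold was not tested. The median RUNX1 fold of terminal regions was 16.6 with ETS1 and 7.07 without. Where both factors were present their summits lay a median of 58 bp apart at the ends and 53 bp elsewhere.

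**Figure D4:**
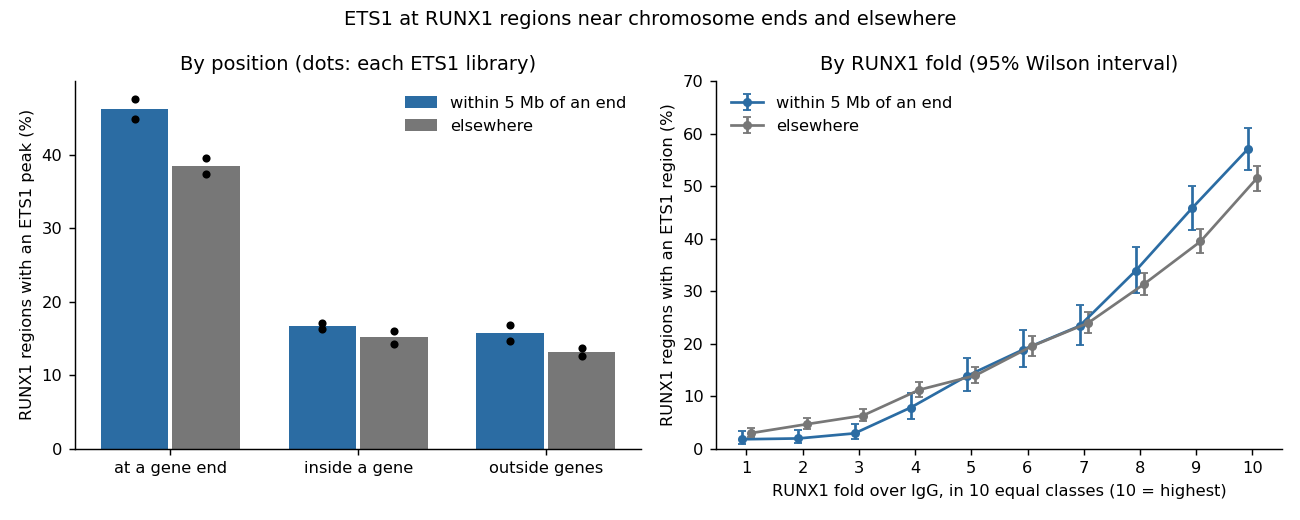
Percentage of RUNX1 regions with ETS1, for regions within 5 Mb of a chromosome end (blue) and elsewhere (grey). Left, by position relative to protein-coding genes, with bars for the mean of the 2 ETS1 libraries and dots for each; right, by RUNX1 fold in 10 equal classes with 95% Wilson intervals. At gene ends the libraries gave 47.6 and 44.8% near chromosome ends and 39.5 and 37.4% elsewhere.

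Peaks of ETS1 taken on their own were also gathered at the ends. The 2 ETS1 libraries had 23.3% and 23.2% of their peaks in the terminal windows (23.3 ± 0.0873, SD, n = 2) and the RUNX1 libraries 22.3% and 22.2% (22.2 ± 0.0762, n = 2). The difference of -1.02 percentage points exceeded the spread between libraries, with no overlap between antibodies. The lists were of unlike length, with 25360 and 25001 peaks for RUNX1 and 6082 and 5625 for ETS1. Of the 500 RUNX1 regions with the highest fold 30.4% were terminal, beside 21.8% of all, so the share depends on which peaks are counted. No value at equal numbers of peaks is given for it. A two-sided exact permutation test over the 4 libraries gave p = 0.33, the smallest that 2 against 2 allow. Without chromosome 19 the difference was -0.167 points. Of the 1182 terminal ETS1 regions, 97.5% overlapped a RUNX1 region, as did 98.1% of the ETS1 regions elsewhere. ETS1 had 5.77 regions per Mb at the ends and 1.37 in the rest, a ratio of 4.21.

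ETS1 met RUNX1 more often where genes were many. In terminal windows with under 20, 20 to 39, 40 to 79, and 80 or more genes the share was 7.22, 12.2, 18.5 and 26.4%, and in inner windows 12.1, 15.1, 19.04 and 31.3%, so the terminal share was the lower in each class. The share of RUNX1 regions with ETS1 was 50% at 19q, 36.6% at 19p and 34.0% at 16p, and 2.04% (1 of 49) at 8p. At 6q it was 0 of 48, which allows a share of up to 6.25% by the rule of 3 counts and 7.41% by the Wilson interval. ETS1 was more common than on the rest of the same chromosome at 16 of the 41 ends, fewer than stood above their chromosome in RUNX1 density.

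At some terminal regions the ETS1 fold was above the RUNX1 fold. The region with the highest ETS1 fold, 4757 bp from NADK, the gene of NAD kinase on 1p, had 109.7 in both ETS1 libraries and 16.3 and 15.8 for RUNX1. Close to it, at the end of SLC35E2B, ETS1 reached 72.6 and 71.0 against 12.4 and 9.54 for RUNX1. ETS1 also stood above RUNX1 at the ends of DOT1L, the H3K79 methyltransferase gene (39.7 and 39.4 against 22.1 and 22.3), DPP9, a dipeptidyl peptidase gene (35.1 and 37.1 against 13.2 and 10.4) and SNX8 (31.0 and 31.1 against 6.80 and 6.42). On 3q, 55314 bp from LMLN, both were high, with 74.7 and 70.7 for ETS1 and 145.6 and 160.2 for RUNX1. In the nonsense-mediated decay gene SMG6 ETS1 had 29.6 and 26.0 and RUNX1 68.8 and 82.0. Folds of different antibodies are set against the same kind of control but are not on one scale of occupancy.

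Genes in the terminal windows were occupied more often than genes elsewhere. A gene counted when any base of a RUNX1 region, not only its summit, lay within 1000 bp of the gene's start or finish. Wide regions meet this rule more easily, and terminal regions were wider (median 986 against 842 bp). By this rule a RUNX1 region lay at an end of 1468 of the 2507 terminal genes (58.6%). It did so at 45.5% of the other genes and 47.2% of all 19821. For ETS1 the values were 28.2% of the terminal genes (707), 17.7% of the others and 19% of all. Where a RUNX1 region was present its median fold was 10.8 at terminal genes and 8.25 at the others, and that of ETS1 was 6.52 and 5.76. Counts for the listed genes that follow are at gene ends and are to be read against 58.6% and 28.2%. Such an end may be a gene's start or its finish, so a fold given there need not be that of a promoter. A RUNX1 region lay inside 49.2% of terminal genes and 38.2% of the others. Neighbouring genes can share a region, as LIME1 and ZBTB46 do.

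The NOTCH pathway is the receptor system most often activated by mutation in T-ALL. Of 11 terminal genes listed with it, 8 had RUNX1 at an end and 2 had ETS1. The target gene HES1, a transcriptional repressor, had the highest RUNX1 fold of the list (78.4 and 67.9). Its ETS1 region (6.82 and 6.78) lay within 1000 bp of a gene end but not over the start site. POFUT2, a protein O-fucosyltransferase gene counted among the 8, had 36.6 and 34.3. Its place in the pathway rests on the list alone. LFNG, a fringe glycosyltransferase that modifies the receptor, had 23.1 and 20.9, and HES5, another target, 22.2 and 20.98. At NOTCH1 itself RUNX1 had 15.3 and 13.3 and ETS1 7.33 and 6.36. The ligand genes DLL1 and JAG2 and the coactivator gene MAML1 had no RUNX1 region at an end.

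Among T-cell surface and signalling genes, 23 of 30 had RUNX1 and 6 had ETS1. TNFRSF4, which encodes the costimulatory receptor OX40, led with 82.3 and 78.6 and no ETS1. The cytokine gene IL32 followed with 48.4 and 52.9 (ETS1 4.57 and 4.92), then LSP1 with 28.7 and 28.7, TNFRSF14, encoding the receptor HVEM, with 25.2 and 26.8, and TSPAN32 with 26.7 and 24.1. CD7, a surface marker of T-ALL blasts, had 17.5 and 15.4 for RUNX1 and 3.67 and 3.45 for ETS1. The 7 genes with none at an end were PRKCZ, CCR6, DOCK8, TRAF2, B3GAT1, NFATC1 and ICOSLG, of which PRKCZ held 8 regions inside, NFATC1 4, B3GAT1 2 and TRAF2 1. ICOSLG is a ligand of antigen-presenting cells.

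Of the blood and leukaemia transcription factors 17 of 25 had RUNX1 and 7 had ETS1. SKI, a corepressor of SMAD signalling, had 53.8 and 48.9 without ETS1. ZBTB7A, a repressor of fetal globin genes, had 37.6 and 36.4 with ETS1 at 12.9 and 11.8. TCF3, which encodes the E proteins E12 and E47, had 30.4 and 29.5 with ETS1 at 13.5 and 17.1. NFIC had 29.99 and 25.9, and CBFA2T3, a corepressor related to the fusion partner of RUNX1 in acute myeloid leukaemia, 28.9 and 26.0, both without ETS1. These counts use the outermost gene ends only. At an inner start site of CBFA2T3 RUNX1 had 77.7 and 76.8, again without ETS1. No RUNX1 region lay at the ends of PRDM16, IRF4, EBF3, TEAD4, MEF2A, IRF8 and TGIF1, nor at FOXM1, a mitotic factor that had ETS1 alone (4.24 and 4.59). PRDM16, EBF3 and TGIF1 each held 1 region inside.

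Chromatin regulators were among the most often occupied, with RUNX1 at 25 of 28 and ETS1 at 13. ING5, a reader of histone H3 trimethylated at lysine 4, had the highest fold of all listed genes, 99.8 and 97.8, with ETS1 at 5.46 and 5.26. The RUNX1 region, chr2:241730233-241735955, lay beyond the upper-coordinate end of the gene's span, at 241729478. ANKRD11 had 38.5 and 34.7. The Polycomb genes CBX8 and CBX2 had 27.6 and 25.3 and 23.8 and 24.5, and of these CBX8 had ETS1 (14.3 and 14.005). NSD1, an H3K36 methyltransferase gene, had 24.1 and 22.3. The genes with none at an end were ZMYND11, TLE2 and UHRF1, which held 1, 5 and 4 regions inside.

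Growth signalling genes had RUNX1 at 18 of 21 and ETS1 at 10. MAP2K2, the MEK2 kinase gene, led with 50.2 and 48.2 (ETS1 8.05 and 7.53), before the autophagy kinase gene ULK1 with 39.2 and 34.5 (ETS1 8.62 and 6.53) and the G-protein gene GNB1 with 17.8 and 15.3 (ETS1 13.9 and 10.97). AXIN1, of the Wnt destruction complex, had 16.2 and 15.99, and the tumour suppressor gene STK11 16.4 and 15.6. SQSTM1, FLT4 and IRS2 had none at an end, and SQSTM1 held 3 regions inside and FLT4 1.

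Cell cycle and genome maintenance genes had RUNX1 at 24 of 27 and ETS1 at 12. The helicase gene RTEL1, which acts at telomeres, had 42.0 and 41.3. SLBP, the histone mRNA stem-loop binding protein gene, had nearly equal folds for both factors, 28.6 and 26.3 for RUNX1 and 27.0 and 25.9 for ETS1. RECQL4 had 26.9 and 24.6, RPA1 22.7 and 22.7, and CHFR 19.4 and 21.7. At TERT, the telomerase gene on 5p, RUNX1 had 6.83 and 5.67. MGMT, NDC80 and CDC25B had none at an end, and MGMT held 4 regions inside and CDC25B 3.

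**Figure D5:**
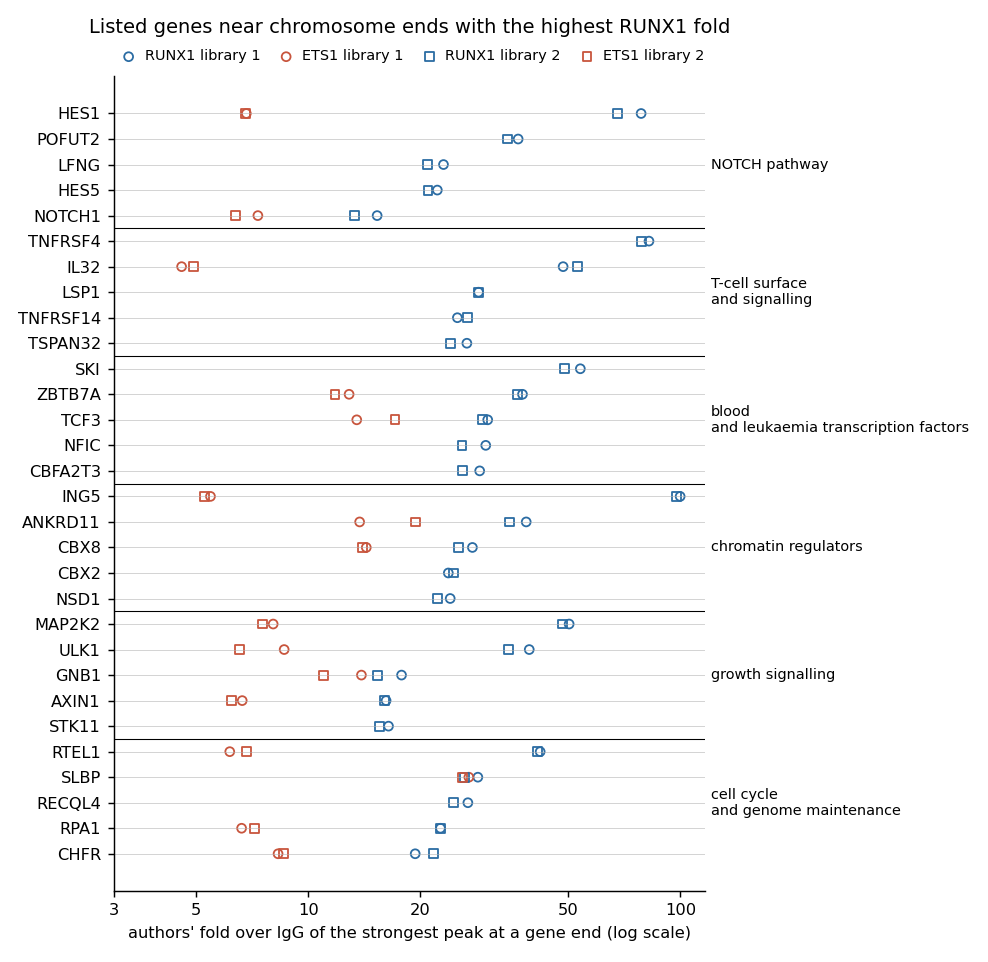
Fold over IgG of the strongest RUNX1 (blue) and ETS1 (red) region at an end of the 5 listed genes of each group with the highest RUNX1 fold. The horizontal axis is logarithmic, circles are library 1 and squares library 2, and a gene with no red mark had no ETS1 region; RUNX1 reached 99.8 at ING5, and ETS1 came nearest to RUNX1 at SLBP.

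Genes of other lineages in the same windows mostly had no RUNX1 region at an end, though some held regions inside. Of 22 myeloid, erythroid and natural killer genes 3 had a RUNX1 region at an end, LAIR1 (35.4 and 35.8), CFD (32.9 and 34.7) and GP1BA (14.7 and 14.3), and ETS1 was at LAIR1 and CFD. The alpha-globin genes HBZ, HBM, HBA2, HBA1 and HBQ1, the granule protease genes AZU1, PRTN3 and ELANE, and the LILR and KIR receptor genes tested had none at an end; PRTN3 and LILRB1 each held 1 region inside. HBA1 and HBA2 are near-identical copies, and the KIR and LILR families are alike in sequence, so a lack of peaks there is uncertain. Of 30 genes of non-blood tissues 6 had RUNX1, led by ASCL2 (14.5 and 14.9) and OPRL1 (12.7 and 11.1), and OPRL1 alone had ETS1. Insulin (INS), SHH and the mucin gene MUC2 were among the 24 without one at an end. Regions inside the gene were present in 5 of the 22 and in 11 of the 30, with 45 regions in all in the latter. Of the non-blood genes with none at an end, MYT1 held 9 inside, NTSR1 8, MBP 7 and MUC4 4. Both lists lay below 58.6% at gene ends. All the other lists lay above it, so a share above 58.6% was not particular to the T-cell list, at 23 of 30. The chromatin list had 25 of 28, the cell cycle list 24 of 27 and the growth signalling list 18 of 21.

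The pseudoautosomal genes, which X shares with Y, had RUNX1 at 11 of 18 and ETS1 at 5. P2RY8 had 14.99 and 22.8, GTPBP6 17.9 and 16.2, AKAP17A 16.1 and 17.9, IL9R, a cytokine receptor gene 35.5 kb from the Xq end, 15.7 and 14.6, and ASMTL 14.95 and 11.05. SHOX, CRLF2, CSF2RA, IL3RA, ASMT, SPRY3 and VAMP7 had none at an end, and CRLF2, IL3RA and ASMT held 1 region each inside. Whether reads could be placed on both sex chromosomes is not known from the sources used here, which makes these folds uncertain.

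The RUNX motif was in about as many occupied terminal promoters as promoters in general, and the longer of 2 ETS motifs in more. RefSeq promoters of 300 bases (250 before to 50 after the start) were matched to 1940 of the 2507 terminal genes and 15812 of all 19821. TGTGGT, on either strand, was in 10.04% of the 1405 terminal promoters under a RUNX1 region (8.57 to 11.7), in 11.9% of the 1269 without one, and in 11.3% of all promoters. Away from the chromosome ends it was in fewer occupied promoters (9.38%, 8.76 to 10.03) than others (12.7%, 12.1 to 13.3). The ETS motif CCGGAAG was in 22.99% of the occupied (20.9 to 25.3) and 7.09% of the other terminal promoters, and in 12.8% of all. Promoters elsewhere showed the same contrast, with 19.9% of the occupied and 7.10% of the others. The shorter ETS core GGAAG, which CCGGAAG contains, was in 73.3% of occupied and 72.2% of other terminal promoters and in 73.7% of all. Away from the ends GGAAG was in 78.5% of occupied and 70.5% of other promoters. CCGGAAG was in 27.6% of terminal promoters with RUNX1 and ETS1 and in 18.1% of those with RUNX1 and no ETS1. GC content moved with these counts. The median was 71.3% in occupied and 62.3% in other terminal promoters, and 67.7% over all terminal against 61.7% over all other promoters. Its part in the motif counts was not tested. A match is a string of letters, not a bound site, and most terminal regions lay outside these promoters.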

How the data were processed

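CUT&Tag libraries of 6T-CEM cells (2 ETS1, 2 RUNX1) were analysed from deposited peak lists on hg38. The submitters' processing notes name bcl2fastq 2.17, Bowtie2 and MACS3 3.0.0a6; peaks were called per library against IgG. The deposited columns give each peak's fold over IgG (a ratio), −log10 p-value and −log10 q-value as the authors' caller wrote them. Pileup and IgG expectation were solved from fold and −log10 p-value, a step chosen after seeing the data (tolerance 0.01); 100% of peaks had a solution. Overlaps needed 1 bp. Gene spans came from RefSeq (GRCh38.p14); 153 scaffold entries were left out. Depth is not given.

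Regions named are the 12 with the highest RUNX1 fold, 8 with the highest ETS1 fold, 8 strongest without ETS1, the nearest to ends, the 6 widest and those beside the limit; genes are the top 5 of each list and those with none, with a few others; 1 named region is not reported here. Members and all 9 lists were chosen with earlier results of these data known. The test was an exact permutation over libraries; it measures only spread between them. Merging and placement were tested on simulated data (Python 3.11.15, SciPy 1.17.1).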

Additional observations from a re-analysis of the deposited data

How the results depend on the processing

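The excess of RUNX1 regions at chromosome ends kept its direction under all alternatives run for it, and its size moved with the window and with what was counted. Per Mb the ratio of 3.84 ranged from 3.93 to 3.96 when a library was left out. It was 3.63 with peaks of a −log10 q of at least 20, 4.90 and 3.01 with windows of 2 and 10 Mb, 3.89 without chromosome 19, 3.87 with the largest coordinate as chromosome length and 4.95 for bases covered. Per gene the ratio of 1.92 ranged from 1.97 to 1.98 when a library was left out, and was 1.82 with the stricter q, 1.91 and 1.73 with the 2 windows, 2.05 without chromosome 19, 1.94 on autosomes and 2.27 over all genes of the table. The median fold ratio of 1.006 was 0.980 to 0.986 when a library was left out and 0.999 without chromosome 19, so its direction is not settled; it was 1.08 with the stricter q and 1.0003 and 1.013 with the 2 windows. The ETS1 share of 21.3% ranged from 20.8 to 21.9% when a library was left out. It was 16.2% (14.1% elsewhere) with the stricter q, 22.2% within 2 Mb, 19.2% without chromosome 19, 8.60% with a reciprocal overlap of 50%, 14.2% (13.98% elsewhere) with summits within 100 bp, 26.2% (26.0%) with an ETS1 peak of either library, and 51.8% (49.01%) with the 5611 strongest peaks of each library. The share at gene ends (24.9%) ranged from 23.7 to 24.1% when a library was left out; it was 28.2% with the stricter q, 25.6% and 26.4% with the 2 windows, 23.3% without chromosome 19 and 44.1% (51.9% elsewhere) within 5000 bp. Genes with a RUNX1 region (58.6%) ranged from 59.4 to 60.6% when a library was left out, and were 50.1%, 63.6%, 54.3% and 59.7% with the stricter q, the 2 windows and autosomes, and 68.4% (52.0% elsewhere) within 5000 bp. TGTGGTT in place of TGTGGT gave 2.99% of occupied terminal promoters (3.70% of all). The cause of these movements was not tested. The difference in the share of peaks near ends, RUNX1 minus ETS1, kept its sign in all 9 alternatives, from -2.09 to -0.167 points. None of these 9 set the antibodies at equal numbers of peaks. With a replicate block the difference was -1.02, at an exact permutation p of 0.5, the smallest possible. The libraries share only a number: over 41 ends the differences between libraries 1 and 2 of the 2 antibodies had a Pearson r of -0.17.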
